A study of Mus musculus with 56 samples.

Results

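The endoplasmic reticulum (ER) is where secreted and membrane proteins are folded, and the 10 genes described here encode its main chaperones, its disulfide isomerases, a set of their cofactors and Xbp1, a transcription factor that drives them. They were chosen by symbol as members of the unfolded protein response, and all 10 were found among the 22864 genes listed and among the 13869 genes tested. The measurements are polyA RNA-seq libraries of mouse hearts. The mice were adult females of the inbred strain C57BL/6J, with no altered allele named, aged 9 weeks and kept specific pathogen free under 12 h of light and 12 h of dark. After 7 days with chow at all hours, the mice were fed for 7 days by daytime-restricted feeding (DRF) or by nighttime-restricted feeding (NRF), which is the reference because mice are nocturnal. Collection ran every 4 h over 7 zeitgeber times, ZT0 to ZT24, where ZT counts the hours since lights on. Each of the 14 groups holds 4 libraries, 28 per regimen and 56 in all. The labels number the replicates without tying a number to an animal, so p-values measure the spread between these samples. The feeding phase was taken as ZT0 to ZT12 under DRF and ZT12 to ZT24 under NRF, since the labels name the phase of feeding and no clock hours.

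When unfolded proteins build up in the ER, the sensors Ern1 (IRE1), Eif2ak3 (PERK) and Atf6 start the unfolded protein response. IRE1 splices the Xbp1 mRNA into the form that encodes an active factor, ATF6 is cut to release one, and PERK slows translation and raises ATF4. XBP1 and ATF6 act through ER stress elements in the promoters of chaperone genes, and the response is best known in cells that secrete much protein, such as liver and pancreas, while in heart muscle the ER is continuous with the sarcoplasmic reticulum, which stores calcium. Levels below are in TPM (reads per exon length, scaled to the same sum in each library), and differences are on the log2(TPM + 1) scale unless a fold is given. The libraries count reads per gene, so the spliced and unspliced forms of Xbp1 are not separated.

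Hspa5 encodes BiP, the Hsp70 chaperone of the ER lumen (ENSMUSG00000026864, chr2:34771970-34777547, plus strand, build GRCm38 for this and all later positions). Hsp90b1 encodes GRP94, the ER member of the Hsp90 family (ENSMUSG00000020048, chr10:86690209-86705509, minus strand). Dnajb9 (ERdj4; ENSMUSG00000014905, chr12:44205559-44210326, minus strand) and Sdf2l1 (ENSMUSG00000022769, chr16:17130138-17132383, minus strand) encode partners of BiP. Calr encodes calreticulin, the lectin chaperone that holds glycoproteins (ENSMUSG00000003814, chr8:84841850-84846934, minus strand). Pdia3 (ERp57; ENSMUSG00000027248, chr2:121413775-121438687, plus strand) works with calreticulin, and Pdia4 (ENSMUSG00000025823, chr6:47796141-47813430, minus strand) and Pdia6 (ENSMUSG00000020571, chr12:17266545-17284770, plus strand) are further disulfide isomerases. Creld2 encodes a secreted ER protein with disulfide isomerase activity (ENSMUSG00000023272, chr15:88819646-88826683, plus strand). Xbp1 lies on chromosome 11 (ENSMUSG00000020484, chr11:5520659-5525893, plus strand). Exons of Hsp90b1 overlap the opposite-strand gene 1810014B01Rik (mean 9.41 TPM) and those of Pdia3 overlap Catsper2 (mean 2.37 TPM). The use of strand is not given in the sources used here, so reads of these pairs may be mixed.

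The promoters of 5 of the 10 genes held the complete ER stress element (ERSE), a sequence known from genes of the unfolded protein response, which is the class the 10 were chosen from. RefSeq windows (GRCm38.p6) from 250 bases before to 50 after the start were found for all 10 genes and searched on both strands. The ERSE, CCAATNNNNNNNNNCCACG, stood in 5 of the 10 windows, against 39 (0.119%) of the 32851 windows of all genes. These were Hspa5, Hsp90b1, Calr, Pdia6 and Creld2. Without the last base of the motif, Pdia3 and Pdia4 matched too (7 of 10, against 0.365% of all windows). The stretches that carry the match are printed here 5′ to 3′ on the strand of the gene, with the outer blocks of the element in capitals, to show the blocks and the spacer of 9 bases between them. Those of Hspa5 and Pdia3 are kept short because they lie inside the annotated span of a longer transcript.
Hspa5 chr2:34772020-34772048 (plus strand): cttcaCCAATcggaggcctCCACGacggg
Hsp90b1 chr10:86705613-86705681 (minus strand): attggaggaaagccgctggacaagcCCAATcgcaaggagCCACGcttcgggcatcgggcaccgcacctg
Calr chr8:84847050-84847118 (minus strand): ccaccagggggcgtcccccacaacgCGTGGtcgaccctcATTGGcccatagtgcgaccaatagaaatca
Pdia6 chr12:17266466-17266534 (plus strand): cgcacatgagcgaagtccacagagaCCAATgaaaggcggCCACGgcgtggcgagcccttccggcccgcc
Creld2 chr15:88819495-88819563 (plus strand): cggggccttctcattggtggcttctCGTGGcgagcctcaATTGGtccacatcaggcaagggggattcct
Pdia3 chr2:121413868-121413895 (plus strand): cgcagCCAATcggcggctgCCACactgc
Pdia4 chr6:47813577-47813644 (minus strand): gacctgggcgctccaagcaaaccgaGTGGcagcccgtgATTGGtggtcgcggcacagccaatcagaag
The element lies 65 to 47 bases before the start in Hspa5, 98 to 80 in Pdia6 and 29 to 12 in Pdia3, all on the gene's strand. It is on the opposite strand in Calr (162 to 144), Creld2 (126 to 108) and Pdia4 (107 to 90), where the capitals show its reverse complement. Hsp90b1 holds 2 copies, the printed one at 212 to 194 bases and one on the opposite strand that begins 106 bases before the start when its last base is left off. Sdf2l1, Dnajb9 and Xbp1 had no match in this window. None of the 10 windows held ERSE-II (ATTGGNCCACG, 0.0365% of all windows), the XBP1 site TGACGTGG (0.676%) or the C/EBP-ATF element TGATGNAAT bound by ATF4 (0.965%). The clock E-box CACGTG stood in Dnajb9 and Calr (7.15% of all windows). A match is a description of these letters and no measure of binding.

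Recovered depth was 29527844 to 53421005 reads per library, and the 10 genes had from 100 reads (the lowest library of Sdf2l1) to 32409 (the highest of Hspa5). Cardiac muscle markers (8 of 8 listed) summed to 28498 to 43578 TPM per library. Of other cells rich in ER, pancreas and plasma cells had low marker sums. Of the 6 pancreatic markers 3 were listed and summed to at most 1.84 TPM, and the 6 plasma cell markers to 23.2 to 47.6 TPM. Fibroblast markers (6 of 6) summed to 501 to 1012 TPM per library. Red blood cell markers (4 of 4) varied widely, from 1378 to 62602 TPM. In tissue of mixed cells, fewer cells of a type and less RNA per cell cannot be told apart. DRF ZT4 replicate 1 was the lowest library of its group and NRF ZT0 replicate 1 the highest for all 9 genes other than Dnajb9, and the counts that move without either are given beside the results.

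The first question was whether the 10 genes kept their hours when feeding was inverted. Of the 10, 9 changed their hours with the regimen, while Dnajb9 passed no rhythm test in the fit as reported. Under the alternatives tried, the count with a different rhythm on the clock scale was 9 or 10. Under NRF the 9 were lowest at ZT12 and highest at ZT0, and under DRF they were lowest at ZT0 or ZT20 and highest at ZT4. ZT0 is the end of the feeding phase of NRF and the start of that of DRF. At ZT0 all 4 DRF libraries lay below all 4 NRF libraries for 10 of 10 genes, which held for 10.3% of all genes tested.

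**Figure D1:**
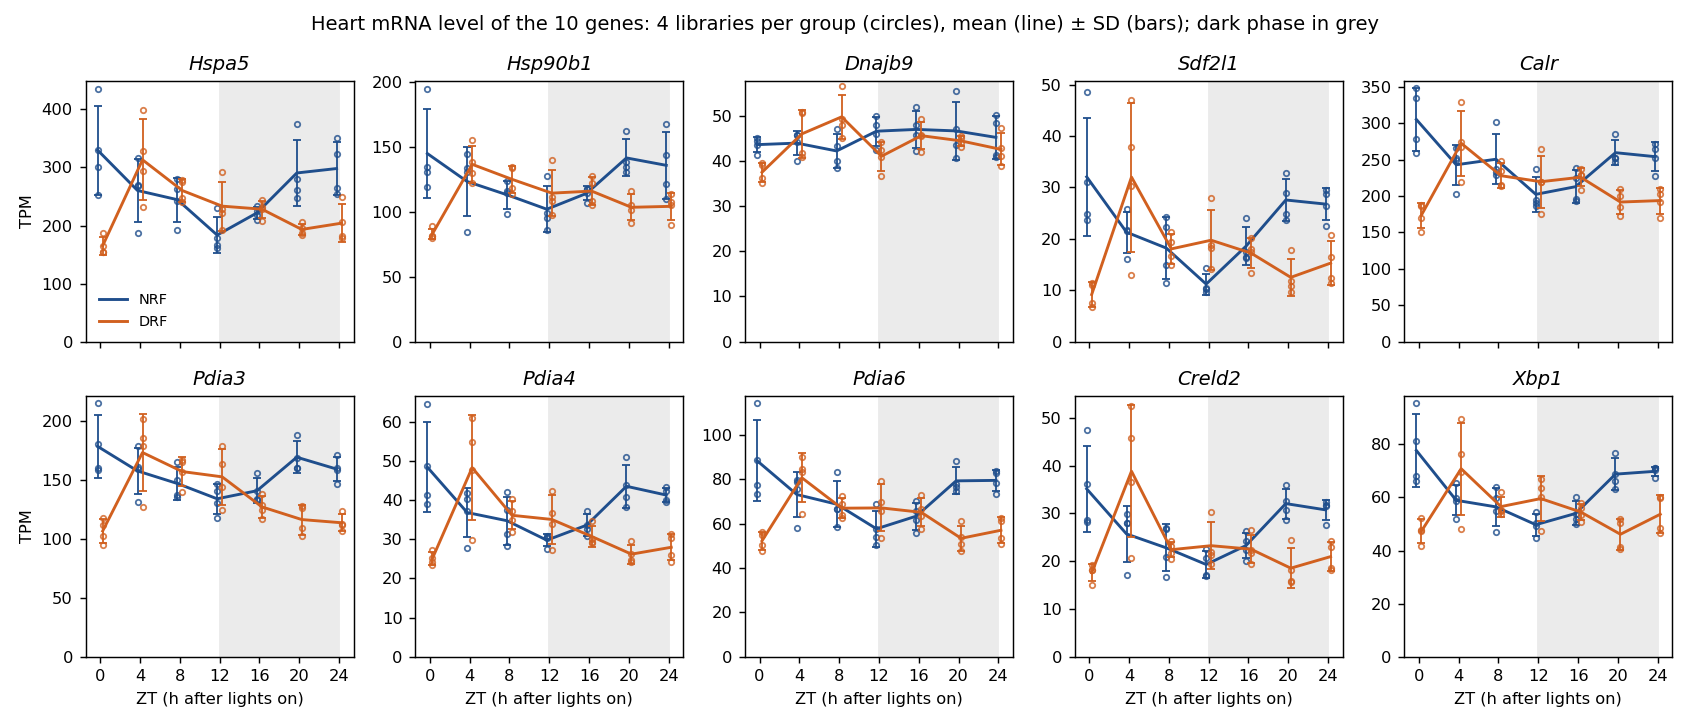
Level in TPM (vertical axis, from 0) against ZT in hours (horizontal axis) for each of the 10 genes, with NRF in blue and DRF in orange. Circles are the 4 libraries of a group, lines join group means and bars are ± SD. In 9 panels the blue line is lowest at ZT12 and the orange line is highest at ZT4, while the Dnajb9 group means stay between 37.5 and 49.7 TPM.

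Hspa5 shows the pattern at high depth. At ZT0 its 4 libraries read 154, 187, 155 and 165 TPM under DRF and 434, 253, 329 and 301 TPM under NRF. At ZT4 they read 231, 328, 294 and 399 TPM under DRF and 270.0, 187, 316 and 268 TPM under NRF. The groups were apart at ZT0 and overlapped at ZT4, since the DRF mean at ZT4 was 1.90-fold that at ZT0. At ZT8 DRF gave 278, 275, 247 and 241 TPM and NRF 279.6, 243, 193 and 263 TPM. At ZT12 DRF gave 192, 221, 229 and 292 TPM and NRF 229.8, 166, 178 and 161 TPM. At ZT16 DRF gave 232, 243, 229 and 208 TPM and NRF 210.2, 234, 219 and 224 TPM. From ZT8 to ZT16 the regimens overlapped, and NRF passed through its minimum at ZT12, the start of its own feeding phase. At ZT20 DRF gave 187, 196, 184 and 206 TPM and NRF 279, 375, 261 and 247 TPM. At ZT24 DRF gave 182, 179, 249 and 206 TPM and NRF 351, 265, 255 and 322 TPM. At both of these hours every DRF library was again below every NRF library. The difference (DRF minus NRF) was -0.97 (SE 0.153, limma adjusted p = 3.22e-05) at ZT0, -0.57 at ZT20 and -0.54 at ZT24.

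Of the other chaperones of the lumen, Sdf2l1 and Hsp90b1 followed the group means of Hspa5 (Pearson r = 0.977 and 0.969 over 14 groups), and Dnajb9 did not (r = 0.415). Sdf2l1 at ZT0 read 6.82, 11.1, 11.3 and 7.46 TPM under DRF and 48.6, 24.9, 31.0 and 23.7 TPM under NRF, a difference of -1.67 (SE 0.254, limma adjusted p = 2.06e-05), or 3.18-fold lower under DRF on this scale. At ZT4 under DRF it reached 12.9, 47.1, 30.2 and 37.9 TPM, with replicate 1 far below the other 3. Its mean at ZT4 under DRF was 3.49-fold that at ZT0, with no overlap between the libraries, and 2.09-fold that at ZT24, with overlap. Hsp90b1 at ZT0 read 80.1, 88.9, 81.4 and 81.8 TPM under DRF and 195, 119.6, 131 and 135 TPM under NRF, a difference of -0.77 (SE 0.134, limma adjusted p = 0.000110). Its DRF libraries were tightly grouped and all below NRF. Dnajb9 at ZT0 read 39.4, 39.1, 36.2 and 35.2 TPM under DRF and 45.1, 41.3, 43.6 and 44.4 TPM under NRF. Those groups did not overlap either, but the difference of -0.21 (SE 0.0839, limma adjusted p = 0.0908) did not pass the test over all genes.

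Calreticulin and the disulfide isomerases moved together. Calr at ZT0 read 151, 187, 187 and 169.7 TPM under DRF and 348, 259, 335 and 278 TPM under NRF, a difference of -0.80 (SE 0.111, limma adjusted p = 3.86e-06). Pdia3, its partner, read 94.9, 112, 118 and 102 TPM under DRF and 215, 158, 180.3 and 160.1 TPM under NRF, a difference of -0.73 (SE 0.110, limma adjusted p = 1.95e-05). In both genes the DRF and NRF libraries were separate at ZT0, and by ZT4 DRF had reached 272 ± 44.6 TPM for Calr and 173 ± 32.5 TPM for Pdia3 (SD, n = 4). Pdia4 at ZT0 read 23.5, 25.2, 27.3 and 24.3 TPM under DRF and 64.5, 39.0, 48.7 and 41.3 TPM under NRF, a difference of -0.90 (SE 0.146, limma adjusted p = 4.66e-05). Pdia6 read 47.5, 55.0, 56.1 and 50.6 TPM under DRF and 114, 73.3, 88.5 and 77.7 TPM under NRF, a difference of -0.73 (SE 0.120, limma adjusted p = 5.35e-05). The highest of the 4 NRF libraries was replicate 1 for all 4 genes.

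Creld2 at ZT0 read 14.9, 18.1, 19.1 and 18.1 TPM under DRF and 47.5, 28.6, 36.1 and 28.3 TPM under NRF, a difference of -0.93 (SE 0.185, limma adjusted p = 0.000576). At ZT4 under DRF it stood at 20.6, 52.5, 36.5 and 45.7 TPM, the highest group mean of this gene under either regimen. Xbp1, the transcription factor, read 41.6, 52.4, 47.5 and 47.6 TPM under DRF and 95.4, 66.1, 81.1 and 68.0 TPM under NRF at ZT0, a difference of -0.69 (SE 0.123, limma adjusted p = 0.000136). Its group means ran from 46.1 ± 5.85 TPM (DRF ZT20) to 77.7 ± 13.6 TPM (NRF ZT0; SD, n = 4 each). At ZT0 the DRF and NRF libraries of both genes were apart.

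Across the 10 genes, the limma contrasts called 9 lower under DRF at ZT0 (8.28% of all genes tested), 9 at ZT20 (11.4%) and 7 at ZT24 (4.46%). The median difference at ZT0 was -0.79 for the 10 genes and -0.052 for all genes tested. At ZT24, the same clock hour, it was smaller, at -0.48 and -0.0036, and Sdf2l1 differed by -0.80 (1.74-fold lower under DRF). Dnajb9 was the gene not called at ZT0 and ZT20, and Hsp90b1 and Creld2 also missed the threshold at ZT24. In between, 0 of 10 were called at ZT4 (0.447% of all genes), ZT8 (0.389%), ZT12 (7.74%) and ZT16 (6.94%), with 2, 1, 3 and 0 at an unadjusted limma p under 0.05 and 0 by voom. The ZT0 calls kept their direction and their side of the threshold under all alternatives tried. All 4 DRF libraries lay below all 4 NRF libraries for 9 genes at ZT20 (15.3% of all genes) and 8 at ZT24 (6.44%). Over all 7 ZTs, 25 of 70 pairs of gene and ZT were called, and 16 were called without replicate 3.

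Other measures of the libraries moved at the same hours, and their part in these differences was not tested. The mitochondrial share of the reads was 22.3 to 24.7% at DRF ZT20, the group with the highest mean, and 19.3 to 20.4% at NRF ZT20, with all 4 DRF libraries above all 4 NRF libraries. It was 18.4 to 22.6% at DRF ZT0 and 16.5 to 21.9% at NRF ZT0, the group with the lowest mean, where the libraries overlapped. Smooth muscle markers had the highest group mean at NRF ZT0 (348 ± 83.1 TPM, against 241 ± 68.6 TPM at DRF ZT0; SD, n = 4) and the lowest at DRF ZT20 (212 ± 36.4 TPM, against 236 ± 20.8 TPM at NRF ZT20). Cardiac muscle markers had the same extreme groups, with 38439.9 ± 3919 TPM at NRF ZT0 and 33331 ± 3462 TPM at DRF ZT20. The atrial sum was highest at DRF ZT0 (3761 ± 1458 TPM, against 2548 ± 1585 TPM at NRF ZT0). The fibroblast sum was lowest at DRF ZT20 (567 ± 53.4 TPM, against 692 ± 53.8 TPM at NRF ZT20). Of the 11 marker sums, 5 had their lowest group mean at DRF ZT20, and at ZT0, ZT20 and ZT24 the libraries of the regimens overlapped in each of the 11.

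**Figure D2:**
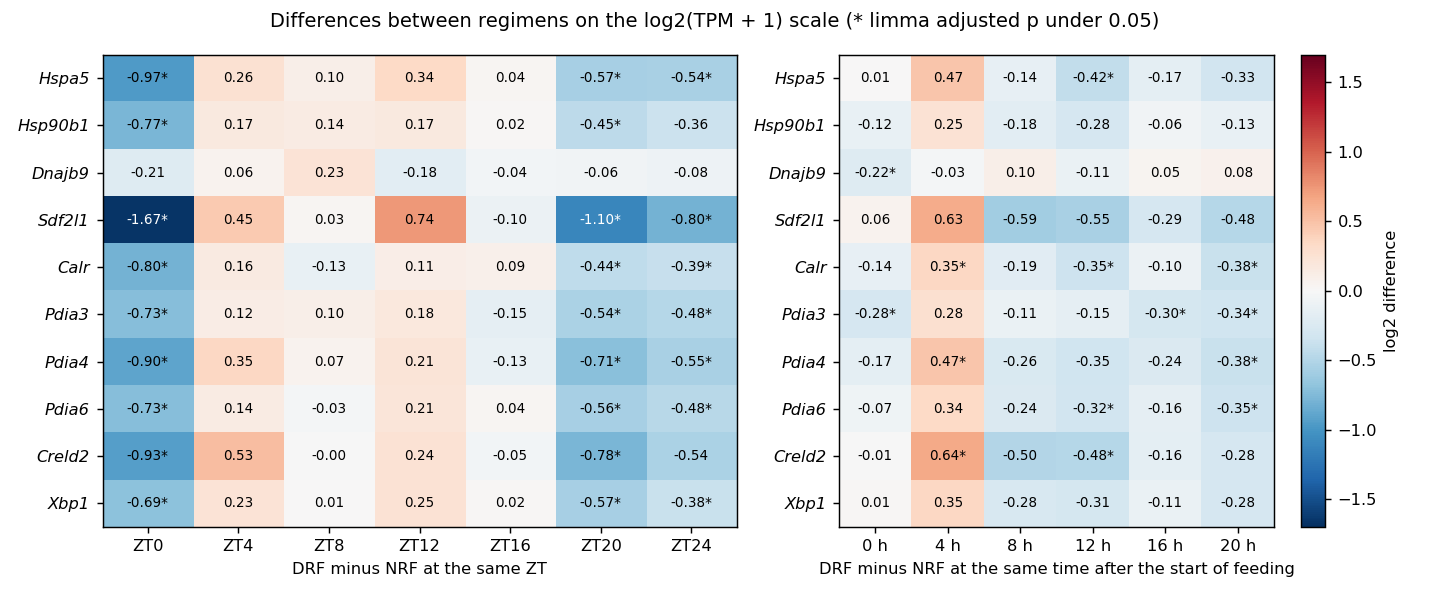
Difference between regimens (DRF minus NRF, log2(TPM + 1), colour and number) for each gene (rows) at the same ZT (left) and at the same time after the start of the feeding phase (right), with a star where the limma adjusted p was under 0.05. The left map is blue at ZT0, ZT20 and ZT24 in 9 rows, and the right map holds smaller differences, higher under DRF at 4 h and lower at 8 and 12 h in those 9 rows.

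Rhythms were then fitted with a 24-h cosine. Under NRF 9 of 10 genes were rhythmic (37.3% of all genes tested) and under DRF 8 (32.4%). Dnajb9 passed under neither regimen (limma adjusted p = 0.244 and 0.266) and Creld2 missed under DRF (adjusted p = 0.0733). The 8 genes rhythmic under both peaked together, between ZT22.8 (Hsp90b1) and ZT0.716 of the next day (Calr) under NRF and between ZT7.69 (Xbp1) and ZT8.97 (Hsp90b1) under DRF. Their fitted peak-to-trough folds were 1.26 (Pdia3) to 2.20 (Sdf2l1) under NRF and 1.30 (Calr) to 1.86 (Sdf2l1) under DRF. The highest DRF group mean, at ZT4, came before the peak of the fitted cosine. The DRF count was 4 without replicate 1, 2 or 4, 5 without replicate 3, without ZT0 or with median-of-ratios rescaling, 4 without ZT20 and 3 on the deposited scale.

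A different rhythm on the clock scale was called for 9 of 10 genes (27.7% of all genes tested), and Dnajb9 was again the exception (limma adjusted p = 0.193). Hspa5 peaked at ZT23.9 under NRF and ZT8.20 under DRF, which is 8.32 h later (SE 1.16). The delay was 9.26 h (SE 1.29) for Sdf2l1, 8.36 h (SE 1.24) for Xbp1 and 10.2 h (SE 1.46) for Hsp90b1, the longest of the 9. Over the 8 genes rhythmic under both regimens the median absolute shift was 8.50 h, beside 3.82 h for all 2457 genes rhythmic under both. With a shift of 8 to 12 h counted as an inverted phase, 7 of these 8 were inverted, as were 17.7% of those 2457 genes, and the other one, Calr, shifted by 7.89 h. The 95% interval of each of the 8 shifts crossed the 8 h limit, so the class of a single gene is not settled by these errors. The class also rests on the fitted cosine. The highest group means of the 8 genes stood at ZT0 under NRF and at ZT4 under DRF.

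**Figure D3:**
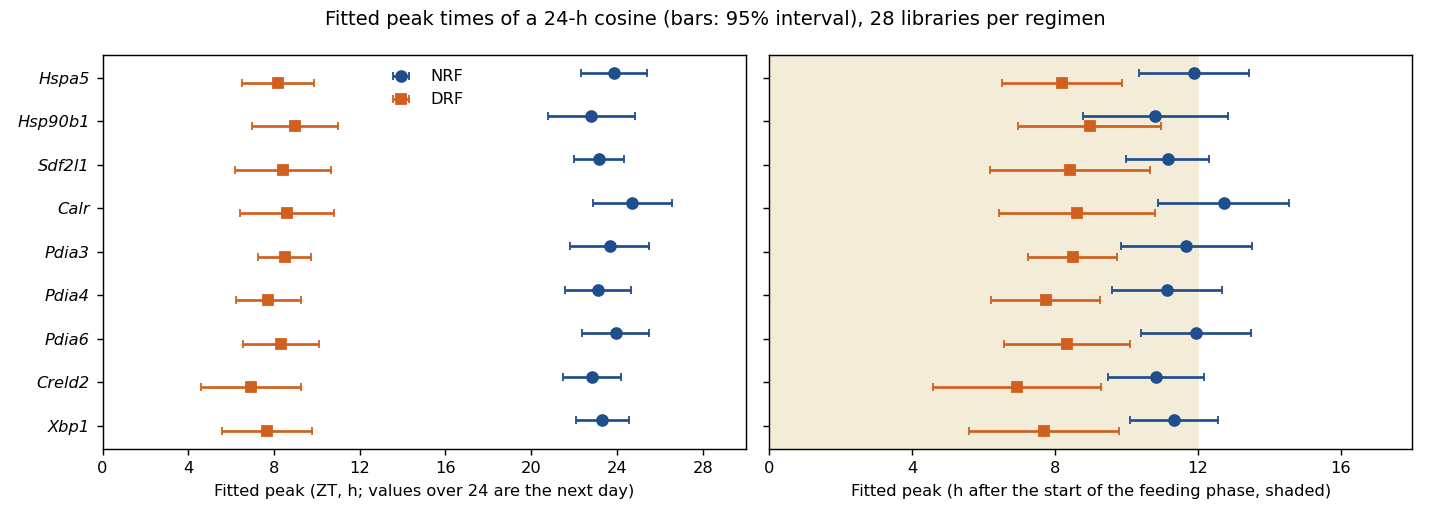
Fitted peak times of 9 genes, without Dnajb9, as ZT (left, hours) and as hours after the start of the feeding phase (right), with NRF as blue circles, DRF as orange squares and bars for 95% intervals. The peaks stand far apart on the left, while on the right DRF comes first, with a shift (DRF minus NRF) of -1.83 h for Hsp90b1 to -4.11 h for Calr.

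The second question was how closely the genes kept time with food. Counted from the start of the feeding phase, the 8 genes peaked 10.8 to 12.7 h into the cycle under NRF and 7.69 to 8.97 h under DRF. All 9 genes other than Dnajb9 thus peaked earlier after food under DRF, and the 95% interval of this shift lay below 0 in 8 of the 9, all but Hsp90b1. These intervals are not adjusted for the number of genes, and the matching share of all genes was not computed. The 9 include Creld2, which was not called rhythmic under DRF. The median shift of the 9 was -3.60 h, and it was -2.59 h with median-of-ratios rescaling and -1.93 h without ZT4 (from -2.35 to 0.177 h), where 8 of the 9 were earlier. For Hspa5 the shift on the food scale was -3.68 h (95% interval -5.96 to -1.40), for Pdia3 -3.18 h (-5.40 to -0.962) and for Xbp1 -3.64 h (-6.06 to -1.21). The test of a different rhythm on the food scale passed in 3 of 10 genes, Hspa5 (limma adjusted p = 0.0396), Pdia3 (0.0178) and Xbp1 (0.0319), against 41.5% of all genes tested. Pdia4, Pdia6 and Creld2 were just outside it (0.0537, 0.0519 and 0.0523). This count ranged from 0 (median-of-ratios rescaling, and without replicate 3, replicate 4 or ZT16) to 7 (without ZT0). It was 1 without replicate 1, ZT4, ZT12 or ZT24, 6 without replicate 2, and 5 without ZT8 or without DRF ZT4 replicate 1.

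**Figure D4:**
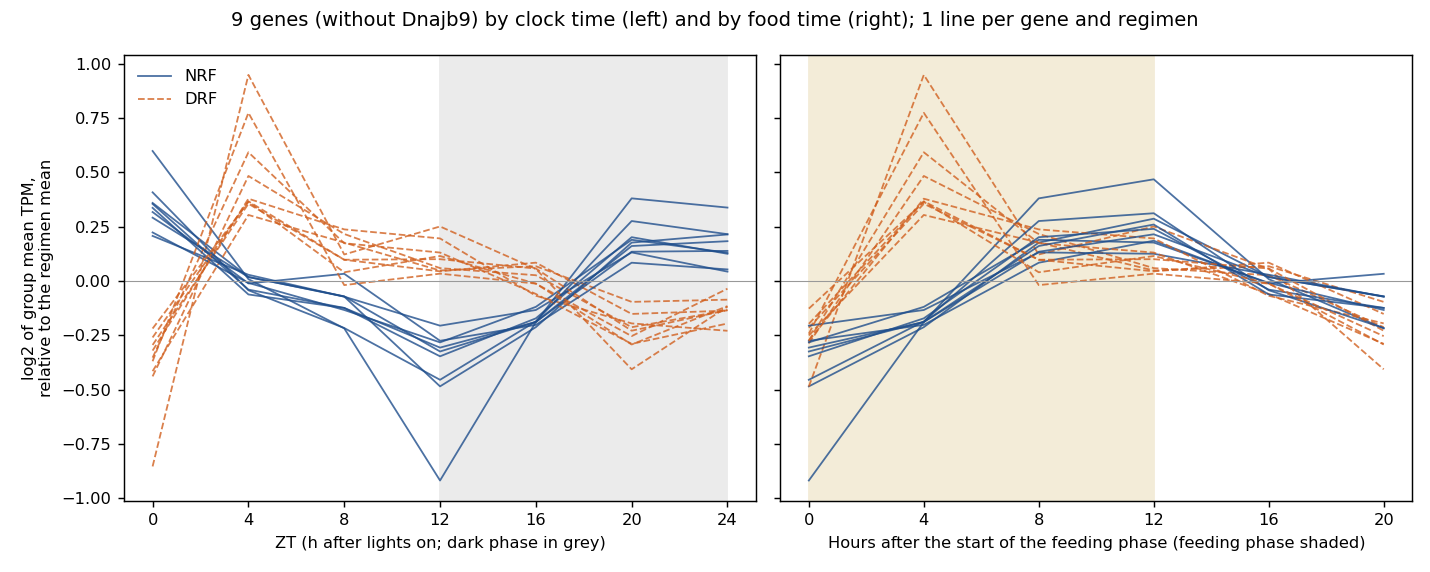
Group means of 9 genes, without Dnajb9, as log2 TPM relative to the mean of the 7 groups of the regimen, against ZT (left, dark phase in grey) and against hours after the start of the feeding phase (right, feeding phase shaded; groups at the same food time averaged). Each line is 1 gene under NRF (blue, solid) or DRF (orange, dashed); on the right both sets start low, and the DRF lines are highest at 4 h and the NRF lines at 8 to 12 h.

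Groups matched by time after food showed where the profiles parted. At 4 h into feeding, 3 of 10 genes were higher under DRF (3% of all genes tested). Creld2 differed most, with 20.6, 52.5, 36.5 and 45.7 TPM at DRF ZT4 and 20.1, 26.3, 22.4 and 24.2 TPM at NRF ZT16, a difference of 0.64 (SE 0.185, limma adjusted p = 0.0249). Replicate 1 of DRF lay inside the NRF range and the other 3 lay above it. Pdia4 (0.47, SE 0.146, limma adjusted p = 0.0422) and Calr (0.35, SE 0.111, limma adjusted p = 0.0498) were the other two. At 8 h 0 of 10 genes were called by limma or by voom (5.56%), with 3 at an unadjusted p under 0.05. At the end of feeding, 12 h, 4 genes were lower under DRF (6.83%), namely Hspa5 (-0.42), Calr (-0.35), Pdia6 (-0.32) and Creld2 (-0.48). At 16 h Pdia3 alone was lower (-0.30; 19.4% of all genes), and at 20 h Calr, Pdia3, Pdia4 and Pdia6 were lower (-0.38, -0.34, -0.38 and -0.35; 21%). At the start of feeding Dnajb9 (-0.22, SE 0.0726, limma adjusted p = 0.0391) and Pdia3 (-0.28, SE 0.0956, limma adjusted p = 0.0438) were lower under DRF (10% of all genes). By voom 0 genes were lower at 0 h, 2 at 12 h, 0 at 16 h and 3 at 20 h, and 6 were higher at 4 h. The contrasts at 0 and 12 h average ZT0 and ZT24 of one regimen. The 14 calls over 6 food times became 6 with median-of-ratios rescaling or with no filter on low values, 8 without replicate 2 or 4, 0 without replicate 3 and 22 without DRF ZT4 replicate 1.

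Over the first hours of feeding the step in group means was larger under DRF. Both DRF ZT0 and DRF ZT24 stand at the start of feeding. The mean of Hspa5 was 165 TPM at DRF ZT0, 204 TPM at DRF ZT24 and 313 TPM at DRF ZT4, a step of 1.90-fold from ZT0 and 1.53-fold from ZT24. Under NRF it went from 184 to 222 TPM over the same 4 h, or 1.21-fold. For Creld2 the step was 2.21-fold from DRF ZT0, 1.85-fold from DRF ZT24 and 1.20-fold under NRF, and for Pdia4 it was 1.93, 1.73 and 1.13-fold. All libraries of DRF ZT4 lay above all of DRF ZT0 for 9 of 10 genes (3.76% of all genes tested) and above all of DRF ZT24 for 4 (3.89%). Over the matching 4 h under NRF, ZT12 to ZT16, the libraries were apart for Sdf2l1 (1.66-fold) and Pdia4 only. The share of all genes apart over that step was not computed. Under NRF the libraries of the start of feeding lay below those 8 h later for all 9 genes other than Dnajb9 (7.99% of all genes tested), with folds from 1.26 (Pdia3) to 2.46 (Sdf2l1). Over the step from DRF ZT0 to DRF ZT4 the red blood cell markers went from 9252 ± 6501 TPM, the lowest of the 14 group means, to 18176 ± 29642 TPM, the highest, and their part in it was not tested. These steps between group means are descriptions, and the difference between the regimens in them was not tested.

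Feeding and the light cycle were then separated by averaging the regimens, since under DRF the fed hours are light and under NRF they are dark. The feeding effect is the mean of 4 and 8 h into feeding minus that of 4 and 8 h into fasting. Levels were higher when fed in 5 of 10 genes (6.9% of all genes tested) and lower in 0 (2.87%; 0 by voom, and every estimate was positive). These were Sdf2l1 (0.42, SE 0.127, limma adjusted p = 0.0262), Creld2 (0.34, adjusted p = 0.0134), Pdia4 (0.31, 0.00350), Pdia3 (0.23, 0.00528) and Xbp1 (0.20, 0.0303). Hspa5 was just outside (0.22, 0.0546). The median was 0.21 beside 0.025 for all genes tested. Within DRF 9 of 10 genes were higher when fed (22% of all genes tested), led by Sdf2l1 (0.63) and Pdia4 (0.52), and within NRF 0 (8.05%; 0 at an unadjusted limma p under 0.05 and 0 by voom). The estimates within NRF ran from -0.065 (Calr) to 0.22 (Sdf2l1). With 12 h into each phase included, when the NRF levels were at their highest, the feeding effect was called in 9 of 10 genes (11.9% of all genes tested) and, within NRF, in 7 (8.79%). The count of 5 genes for the feeding effect at 4 and 8 h, averaged over the regimens, also moved with single libraries. It was 0 without replicate 2, 1 without replicate 3, 3 without replicate 4 and 8 without DRF ZT4 replicate 1.

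Levels were lower in the dark in 5 of 10 genes (26.6% of all genes tested), namely Pdia4 (-0.21, SE 0.0729, limma adjusted p = 0.0232), Hspa5 (-0.20), Pdia3 (-0.20), Calr (-0.16) and Pdia6 (-0.15). This contrast is fixed by the gap between the feeding effects within DRF and within NRF (NRF minus DRF), so the same calls say that the feeding effect of these 5 genes over those hours was larger under DRF. Of all genes tested, 19.0% were lower and 17.0% higher in the dark with median-of-ratios rescaling, against 26.6% and 7.74% without it. With 12 h into each phase included the count was 1, as it was with median-of-ratios rescaling or without replicate 3, and it was 3 without replicate 1, 0 without replicate 4 and 8 without DRF ZT4 replicate 1.

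**Figure D5:**
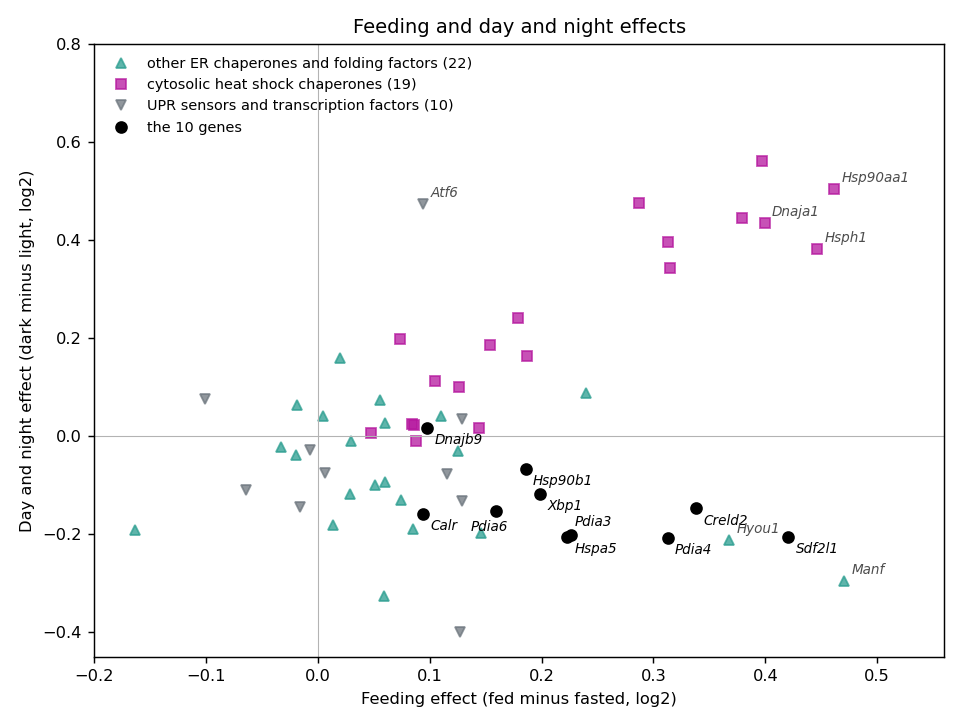
Feeding effect (horizontal axis, fed minus fasted, log2) against day and night effect (vertical axis, dark minus light, log2) for the 10 genes (black, named) and the tested genes of 3 lists, 1 point per gene. Of the 10 genes, 9 lie to the right of 0 and below it, with Hyou1 and Manf beside them, while the cytosolic heat shock genes with large feeding effects lie above 0.

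The mean level over the day was lower under DRF in 4 of 10 genes (24.4% of all genes tested), Pdia4 (-0.18, SE 0.0634, limma adjusted p = 0.0332), Pdia3 (-0.16), Calr (-0.16) and Pdia6 (-0.15). The median difference was -0.15 for the 10 genes and -0.051 for all genes tested. The count was 0 with median-of-ratios rescaling, without replicate 1, without replicate 3 or without ZT8, 1 by voom, on the deposited scale or without ZT0, ZT12 or ZT20, and 9 without ZT4, so the call depends on the scaling and on single time points. With that rescaling 7.38% of all genes were lower under DRF and 5.83% higher, against 24.4% and 1.69% without it. Between ZT24 and ZT0, the same hour a day apart, 0 of 10 genes were called under DRF (0.469% of all genes tested) and 0 under NRF (0.0577%), with 3 and 1 at an unadjusted limma p under 0.05 and 0 by voom. Sdf2l1 under DRF had the widest gap, from 9.18 ± 2.37 TPM at ZT0 to 15.3 ± 4.28 TPM at ZT24 (SD, n = 4; 0.67, SE 0.254, limma adjusted p = 0.248).

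The genes also moved together among libraries of the same group. After the group means were taken off, the 36 pairs among the 9 genes other than Dnajb9 had a median Pearson r of 0.825 (range 0.656 to 0.933) over 56 libraries, which share depth and scaling within a library. Pairs of other genes were not measured, so these values do not show that the likeness is particular to the 9. DRF replicate 1 was lowest for all 9 genes at ZT0, ZT4 and ZT12, and NRF replicate 1 was highest for all 9 at ZT0 and at ZT12. Other libraries stood at an extreme for all 9 too, as DRF ZT12 replicate 4 and NRF ZT20 replicate 2 were highest and NRF ZT4 replicate 2 was lowest. Dnajb9 and Hspa5 had an r of 0.690 in the same comparison, although Dnajb9 did not share the daily pattern.

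Over the 14 group means, the profile closest to Hspa5 among all genes tested was that of Hyou1 (Pearson r = 0.978), another chaperone of the ER lumen, followed by Manf (r = 0.978), a secreted ER stress protein. Of the 10 closest genes 7 were among the 10 described here (Sdf2l1, Pdia6, Hsp90b1, Pdia4, Calr, Xbp1 and Creld2), and the last was Magt1 (r = 0.937). Pdia3 ranked 18 (r = 0.917) and Dnajb9 2920 (r = 0.415). The genes closest to Xbp1 were Pdia6 (r = 0.972) and Creld2 (r = 0.964), followed by Manf, Pdia4, Ruvbl2, Sdf2l1, Hyou1, E2f4, Hspa5 and Krt10 (r = 0.940). The points are group means that share libraries, so these values are descriptions.

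Of the sensors at the head of the response, Atf6 had a daily rhythm in its mRNA under both regimens. Of 10 sensors and transcription factors, 3 were rhythmic under NRF (37.3% of all genes tested) and 4 under DRF (32.4%), which is near those shares. On the clock scale 2 differed in rhythm (27.7%) and on the food scale 3 (41.5%). For the feeding effect 0 were called in either direction (4 at an unadjusted limma p under 0.05, 0 by voom and 1 lower when fed with median-of-ratios rescaling). Of all genes tested 6.9% were higher and 2.87% lower when fed. The mRNAs of the sensors Ern1 (mean 5.70 TPM) and Eif2ak3 (mean 5.62 TPM) were not called rhythmic under either regimen, nor was Atf4, the factor of the PERK branch. Atf6 peaked in the dark under both, at ZT19.4 under NRF and ZT16.5 under DRF, with higher levels in the dark (0.47, SE 0.0443, limma adjusted p = 1.86e-11; 7.74% of all genes tested were higher in the dark). Its libraries read 36.7, 32.2, 40.8 and 37.1 TPM at DRF ZT20, 40.8, 41.5, 34.6 and 36.5 TPM at NRF ZT20, 22.9, 22.6, 24.5 and 25.4 TPM at DRF ZT4 and 26.1, 26.1, 25.7 and 29.5 TPM at NRF ZT4. Of these 2 hours the dark one was higher in every library, the regimens overlapped at ZT20, and at ZT4 the DRF libraries lay below the NRF ones. Under DRF the libraries overlapped between ZT8 in the light, with 32.3, 32.5, 34.1 and 30.9 TPM, and ZT16 in the dark, with 38.7, 40.4, 36.4 and 30.5 TPM. Under NRF they did not, with 25.3, 21.6, 22.7 and 22.8 TPM at ZT8 and 35.1, 38.2, 35.0 and 37.6 TPM at ZT16. Atf6 differed between the regimens at ZT8 (0.47, SE 0.0885, limma adjusted p = 0.00538) and ZT0 (-0.36, SE 0.0885, limma adjusted p = 0.00574), and its rhythm differed on the clock scale (adjusted p = 0.0112).

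Among 22 other ER chaperones and folding factors, 5 were higher and 1 lower when fed, 1 higher and 11 lower in the dark (7 higher and 5 lower with median-of-ratios rescaling), and 13 and 11 rhythmic under NRF and DRF (10 differed in rhythm by the clock and 12 by food). Manf had the largest feeding effect (0.47, SE 0.108, limma adjusted p = 0.00292), with 12.9, 17.1, 15.7 and 14.8 TPM at DRF ZT0 and 58.8, 31.1, 39.1 and 32.6 TPM at NRF ZT0. Hyou1 followed (0.37, SE 0.0804, limma adjusted p = 0.00181), with 10.3, 13.7, 12.2 and 11.8 TPM and 31.3, 18.6, 27.0 and 22.3 TPM at the same hours. In both genes the regimens were apart at ZT0, as in the 10 genes. Dnajc3 (p58IPK), a cochaperone of BiP, was higher when fed (0.24, SE 0.0544, limma adjusted p = 0.00276) but was not rhythmic under DRF (adjusted p = 0.162).

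Of 17 genes of ER-associated degradation, which exports misfolded proteins to the proteasome, 14 were tested and 1 had a feeding effect, Ube2j2 (0.16), and 0 were lower when fed. In the dark 2 were higher and 5 lower (3 higher and 2 lower with median-of-ratios rescaling), 5 and 7 were rhythmic under NRF and DRF, and 4 and 5 differed in rhythm by the clock and by food. Herpud1, an ER membrane protein of this system, peaked in the dark under both regimens, at ZT14.2 under NRF and ZT17.2 under DRF, with a day and night effect of 0.77 (SE 0.0656, limma adjusted p = 1.24e-12). Its rhythm also differed between the regimens on the clock scale (adjusted p = 3.61e-05). It stood at 278 ± 40.5 TPM at DRF ZT20 and 161 ± 19.5 TPM at NRF ZT20 (SD, n = 4; 0.78, SE 0.131, limma adjusted p = 0.000104), and the difference was 0.49 (SE 0.131, limma adjusted p = 0.0124) at ZT24, -0.64 (SE 0.131, limma adjusted p = 0.00194) at ZT12 and 0.21 (SE 0.131, limma adjusted p = 0.327) at ZT0.

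Of 19 targets of PERK and ATF4 17 were tested, and of these 2 were higher and 3 lower when fed, 2 higher and 3 lower in the dark (3 higher and 1 lower with median-of-ratios rescaling), 8 rhythmic under each regimen, and 9 and 8 differed in rhythm by the clock and by food. Ddit3 (CHOP), a factor tied to cell death under ER stress, was higher when fed (0.38, SE 0.0761, limma adjusted p = 0.000716), as was Atf5 (0.23, SE 0.0584, limma adjusted p = 0.00882). Chac1, which degrades glutathione, was lower when fed (-0.67, SE 0.153, limma adjusted p = 0.00285) and had its fitted peaks at ZT9.91 under NRF and ZT18.3 under DRF, in the fasting phase of each. Its group means were low, from 2.14 TPM (NRF ZT24) to 10.5 TPM (NRF ZT12). Replicate 1 went against this effect at DRF ZT4 (5.83 TPM, the others 0.996 to 1.12 TPM). It did so too at NRF ZT8 (0.998 TPM, the others 4.94 to 8.33 TPM). The few called targets of this branch thus went in both directions when fed, while most of the 17 were not called. Of all genes tested 6.9% were higher and 2.87% lower when fed.

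A list of 21 genes held 17 of ER translocation and signal peptide cleavage and 4 subunits of the COPII coat of vesicles that leave the ER. When fed, 2 of the former were higher, the signal peptidase subunits Spcs2 (0.13) and Spcs3 (0.11), as was 1 of the coat subunits, Sec31a (0.13), and 0 were lower. The whole list had 1 higher and 13 lower in the dark (1 higher and 7 lower with median-of-ratios rescaling), 9 and 15 rhythmic under NRF and DRF, and 9 and 14 different by the clock and by food. For the cytosolic heat shock chaperones all day and night calls were higher in the dark. Of 19, 9 were higher and 0 lower when fed, 10 were higher and 0 lower in the dark (14 higher and 0 lower with median-of-ratios rescaling), 16 and 4 were rhythmic under NRF and DRF, and 12 and 10 differed in rhythm by the clock and by food. Hsp90aa1, the inducible cytosolic Hsp90, had a feeding effect of 0.46 (SE 0.106, limma adjusted p = 0.00302) and a day and night effect of 0.50 (SE 0.106, limma adjusted p = 0.000220). Hsph1 and Dnaja1, cochaperones of Hsp70, had feeding effects of 0.45 and 0.40 and day and night effects of 0.38 and 0.44. Hsp90b1, the ER member of the same Hsp90 family, had a day and night effect of -0.066 (SE 0.0671, limma adjusted p = 0.473). The lists' counts were not tested against each other or against the shares of all genes tested. Those shares were 37.3% and 32.4% rhythmic under NRF and DRF, and 27.7% and 41.5% different by the clock and by food. They were 6.9% higher and 2.87% lower when fed, and 7.74% higher and 26.6% lower in the dark.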

How the data were processed

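PolyA mRNA of mouse heart was sequenced in 56 libraries, with 4 in each of the 14 groups of regimen and ZT. Per the labels the authors used HISAT2 2.0.5, featureCounts 1.5.0-p3 and build mm10, and no molecular identifiers are named. The authors deposited a table of values named TPM, but these are not on a linear scale. For 22013 of 22864 genes, the 10 included, each value times the exon length of the gene (GENCODE release 21 of mouse) was a constant of the library times log2 of 1 plus a scaled read count. For 835 others, 800 of them on chromosomes 17 to 19, a length was chosen at which the values became whole reads, and 16 were too abundant to judge and kept the annotated length. Whole reads (within 0.1) came back from 99.99% of the 1192403 values above 0 and under 30000 reads, and higher values were rounded. Linear TPM were computed from those reads. The unit thus differed from the one the design assumed. Genes with a mean TPM of 1 or more (13869) were tested with limma 3.58.1 in R 4.3.3 on log2(TPM + 1), with Benjamini-Hochberg adjustment over all genes and a limit of 0.05. Rhythms were fitted with a 24-h cosine (F test), differences between regimens by interaction terms, and group contrasts in a model with 14 group means. The procedure was tested on simulated data. Promoters came from RefSeq. The alternatives were another pseudocount, no filter, rescaling by the median of ratios to a mean library, limma voom on the recovered reads, the deposited values as they stand, a replicate block, feeding contrasts with 12 h, leaving out each replicate number or ZT, and, chosen after the data were seen, leaving out DRF ZT4 replicate 1 or NRF ZT0 replicate 1. Genes outside the 10 were named when they were the sensors, Atf4, Ddit3, Hyou1, Dnajc3, Manf or Herpud1. Others were among the 3 with the largest feeding effect of the genes called for it in their list. The rest were among the 10 closest in profile to Hspa5 or Xbp1, or overlapped exons of the 10 genes. The 10 genes and the lists were chosen with earlier results of these data known.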

Additional observations from a re-analysis of the deposited data

Results flagged for a closer look

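Of 140 groups of 4 libraries, 1 for each gene and each regimen and ZT, 6 held a library far from the other 3 by Dixon's criterion, and chance alone flags about 1 in 20 such groups. Calr, which encodes calreticulin, accounted for 3 of them, all under NRF. Its level was 302 TPM in replicate 4 at ZT8, where the other 3 libraries lay between 229 and 238 TPM, and 238 TPM in replicate 1 at ZT12, where they lay between 187 and 195 TPM. At ZT20 it was 285 TPM in replicate 2, against 247 to 253 TPM in the others. Sdf2l1 was at 24.1 TPM in replicate 2 of NRF ZT16, against 16.2 to 17.4 TPM, Pdia4 at 27.4 TPM in replicate 4 of NRF ZT12, against 30.2 to 30.7 TPM, and Creld2 at 17.0 TPM in replicate 2 of NRF ZT4, against 27.9 to 29.9 TPM.

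The rhythm on the clock scale differed between the regimens in 9 of the 10 genes by the interaction term of the limma model. The adjusted p was 3.38e-05 for Hspa5, 0.000247 for Hsp90b1, 3.69e-05 for Sdf2l1, 0.000972 for Calr and 3.36e-06 for Pdia3. It was 2.51e-05 for Pdia4, 4.08e-05 for Pdia6, 0.000680 for Creld2 and 4.86e-05 for Xbp1. The fitted peaks of these genes moved by 7.89 to 10.2 h.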

How the results depend on the processing

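The count of genes with a different rhythm on the clock scale was 9 in the fit as reported and 9 or 10 under all alternatives, and the ZT0 difference of each gene kept its direction and its side of the threshold in 120 of 120 refits. The peak after food came earlier under DRF for 9 of 9 genes under all alternatives but without ZT4 (8 of 9, with a median shift of -1.93 h in place of -3.60 h). Other counts moved, and the cause was not tested. Under median-of-ratios rescaling the counts were 5 genes rhythmic under DRF, 0 with another rhythm on the food scale, 1 with a day and night effect, 0 with another mean level and 6 calls over food times, which also numbered 6 with no filter. On the deposited scale they were 3, 1, 1 and 1 for the first 4 of these. Voom called 1 gene for the mean level. With 12 h into each phase included, 9 genes had a feeding effect and 1 a day and night effect. Genes rhythmic under DRF numbered 5 without ZT0 and 4 without ZT20. Food-scale calls were 7 without ZT0, 1 without ZT4, ZT12 or ZT24, 5 without ZT8 and 0 without ZT16. Mean-level calls were 1 without ZT0, ZT12 or ZT20, 9 without ZT4 and 0 without ZT8. Leaving out replicates gave 4 to 8 genes rhythmic under DRF, 0 to 6 for the food-scale rhythm, 0 to 8 for the feeding effect, 0 to 8 for the day and night effect, 0 to 4 for the mean level, 16 to 31 calls over ZTs and 0 to 22 over food times.

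Replicate numbers did not pair the libraries (mean r of deviations 0.017 for the same number and -0.0057 for others, with 21 of 56 libraries closest to their own number). A replicate block gave 9 and 8 genes rhythmic under NRF and DRF, 9 and 3 different by the clock and by food, 5 with a feeding effect, 4 with a day and night effect, 4 for the mean level, 25 calls over ZTs and 12 over food times.

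Signs turned only in effects that were not called. The feeding effect within NRF turned to -0.057 for Hspa5 and -0.033 for Pdia6 on the deposited scale (in its own units), and to 0.11 for Calr with 12 h included. With single replicates left out it ran from -0.13 to 0.084 for Hspa5, -0.0029 to 0.19 for Hsp90b1, -0.15 to 0.025 for Calr, -0.088 to 0.11 for Pdia3, -0.043 to 0.18 for Pdia4, -0.087 to 0.089 for Pdia6 (-0.030 without replicate 3) and -0.0071 to 0.13 for Xbp1. The Dnajb9 day and night effect was -0.00667 with 12 h included and -0.015 (without replicate 2) to 0.061 with single replicates left out (-0.013 without replicate 3). Its mean-level difference was 0.027 under median-of-ratios rescaling, 0.019 on the deposited scale and 0.033 without ZT12, its ZT20 difference 0.016, 0.93 and, with single replicates left out, -0.11 to 0.017, and the Dnajb9 feeding effect within DRF -0.00107 under that rescaling. Every library held at least 100 reads of each gene.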
